A study of Mus musculus with 6 samples.

Results

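The genes followed here encode the SLAM receptors of T cells, the adaptor protein SAP, the lipid-presenting molecule CD1d and the transcription factor PLZF. They are the rows of the deposited gene table whose symbol is Slamf1, Slamf6, Ly9, Cd84, Cd48, Sh2d1a, Cd1d1 or Zbtb16, 8 of 22322 genes in all. The symbols were chosen by name, but with earlier results of these data known. RNA-Seq was performed on DP thymocytes (CD4+CD8+ cells of the thymus) sorted by flow cytometry, in 3 libraries from control mice and 3 libraries from Paxbp1 cKO mice. Control mice were untreated Paxbp1fl/fl animals, labelled WT, which carry loxP sites around exon 8 of both Paxbp1 alleles and no Cre. Paxbp1 cKO mice were untreated Paxbp1fl/fl Lckcre animals, in which a Cre transgene under the Lck promoter acts in T lineage cells from an early thymic stage. Per the methods the mice were littermates of mixed sexes, 4 to 7 weeks old, with the floxed allele on the C57BL/6 background. The sources used here do not say how many mice gave each library, so that p-values measure the spread between these libraries only.

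SLAM receptors are surface proteins that mostly bind a copy of themselves on the next cell, and their tails recruit SAP, which in turn brings in the kinase Fyn. DP thymocytes carry CD1d and show lipids to other DP thymocytes, so that both partners of the contact are thymocytes. A DP thymocyte whose TCR recognises CD1d and that receives SLAM signals through SAP can enter the invariant natural killer T (iNKT) lineage, which is marked by PLZF, the product of Zbtb16.

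In DP thymocytes of the libraries labelled cKO, the RNA of the lipid presenter, of 1 SLAM receptor and of the adaptor was lower than in control. Cd1d1 fell to 51.2% of its control level, Slamf6 to 68.6% and Sh2d1a to 68.5%. In bulk samples such as these, fewer cells of a type and less RNA per cell cannot be told apart. The other SLAM receptors Slamf1, Cd84, Ly9 and Cd48 did not pass the test, and Zbtb16 was at or below 3 reads in every library. In the edgeR quasi-likelihood fit, with p-values adjusted after Benjamini and Hochberg over 11488 genes, 3 of the 7 tested members were lower and 0 were higher at an adjusted p below 0.05, and 4 of the 7 had an unadjusted p below 0.05, against 3204 of all 11488 tested genes. DESeq2 and limma-voom likewise called 3 of them. Adjusted p-values throughout are those of edgeR. Over all tested genes, 5.89% were called lower and 4.47% higher. With the fold limit of the methods added (a log2 fold change below -1), 0 members were called, against 1.23% of all tested genes.

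Total counts were between 18963775 and 26252248 per library, so that 1 read was worth 0.0381 to 0.0527 CPM (counts scaled to the library total) before TMM correction. Other CPM values are given after TMM correction unless stated otherwise. Paxbp1 itself, the targeted gene, had 40.1, 16.3 and 15.5 CPM in control libraries 1, 2 and 3. In the libraries labelled cKO 1, 2 and 3 it had 38.8, 47.1 and 49.6 CPM, so control 1 lay within the cKO range. The paper reported loss of Paxbp1 RNA by qPCR and of its protein by western blot in sorted DP thymocytes of cKO mice. The mean count level of Paxbp1 was instead higher in cKO (45.2 ± 5.64 CPM) than in control (24.0 ± 14.0 CPM, ± S.D., n = 3 each). The counts cover the whole gene and do not single out the deleted exon 8, so they check no label. Every direction given here rests on the labels. DP marker genes were abundant in all 6 libraries, with a summed level of 12013 to 13931 CPM in control and 8885 to 10626 CPM in cKO. All 12 of these markers had a lower estimate in cKO and 3 of them passed the test. Y-linked genes summed to 375 to 419 CPM in every library, so each held male cells, and Xist was not analysed here.

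Of the SLAM receptors, Slamf6 was read first because it had the highest FPKM (authors' values per length) of them in every library. Slamf6 (ENSMUSG00000015314), also called Ly108, lies on the plus strand of chromosome 1 from 171917515 to 171953170 (GENCODE M21 on GRCm38). It had 288, 343 and 308 CPM in control libraries 1, 2 and 3, and 219, 230 and 195 CPM in cKO libraries 1, 2 and 3. No cKO library reached the lowest control library, and the means were 313 ± 27.7 and 215 ± 18.0 CPM (mean ± S.D., n = 3 each). The log2 fold change was -0.54 (standard error 0.12, adjusted p = 0.0197). The call depended on the libraries used. Without control 2, control 3, cKO 1 or cKO 3 the adjusted p was between 0.0509 and 0.110, and the log2 fold change -0.56 to -0.48.

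Slamf1 (ENSMUSG00000015316), also called CD150, shares the SAP pathway with Slamf6 and lies on chromosome 1 from 171767127 to 171801184. It had 196, 171 and 168 CPM in control libraries 1, 2 and 3, and 169, 137 and 98.4 CPM in cKO libraries 1, 2 and 3. The highest cKO library lay above the lowest control library, and the cKO values spread more widely (S.D. 35.3 CPM, against 15.4 CPM in control). The log2 fold change was -0.41 (95% interval -0.80 to -0.01, adjusted p = 0.170), and without cKO 3 it was -0.23.

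Cd84 (ENSMUSG00000038147, chromosome 1 from 171839697 to 171890718) had 130, 137 and 132 CPM in control libraries 1, 2 and 3. In cKO libraries 1, 2 and 3 it had 114, 112 and 114 CPM. The groups did not overlap, and the replicates lay close together (S.D. 3.41 and 1.49 CPM). The log2 fold change was -0.23 (95% interval -0.46 to 0.01) and did not pass (adjusted p = 0.189). With Cd84, Slamf6, Sh2d1a and Cd1d1, 4 of the 7 tested members were lower without overlap between the groups, which held for 17.3% of all tested genes.

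Ly9 (ENSMUSG00000004707, also called CD229) lies on chromosome 1, minus strand, from 171588624 to 171607410. It was the lowest of the receptors, also per length, with 20.5, 25.6 and 28.2 CPM in control and 20.8, 22.0 and 22.3 CPM in cKO libraries 1, 2 and 3. The groups overlapped, with a log2 fold change of -0.19 (95% interval -0.58 to 0.20, adjusted p = 0.533). For Ly9 it was -0.31 without control 1 and -0.087 without control 3. Cd48 (ENSMUSG00000015355, chromosome 1 from 171682009 to 171705258) differs from the other receptors in that its protein is held by a lipid anchor and binds CD2 and CD244. It had 34.7, 57.0 and 41.2 CPM in control and 45.3, 58.2 and 49.7 CPM in cKO libraries 1, 2 and 3. It was the only tested member with a positive log2 fold change, 0.21, whose interval reached from -0.22 to 0.64 (adjusted p = 0.537). It was 0.056 without control 1, 0.10 without cKO 2 and 0.43 without control 2.

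**Figure D1:**
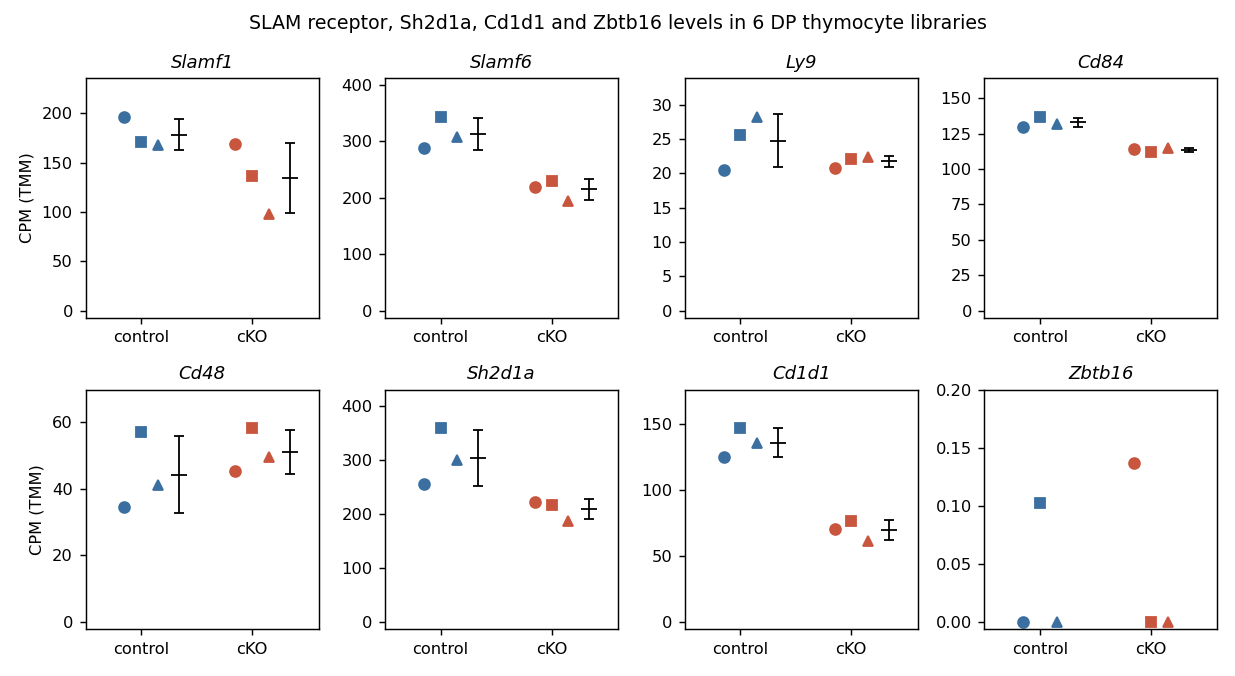
CPM after TMM scaling of the 8 genes in each library, with circles, squares and triangles for replicates 1, 2 and 3 of control (blue) and cKO (red), and mean ± S.D. (n = 3) in black for the 7 tested genes. The cKO points of Slamf6, Cd84, Sh2d1a and Cd1d1 lie below all control points, and Zbtb16 is at 0 in 4 of 6 libraries.

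Sh2d1a (ENSMUSG00000005696) encodes SAP, the small adaptor that couples SLAM receptor tails to Fyn, and lies on chromosome X from 42502453 to 42529330. It had 255, 358 and 299 CPM in control libraries 1, 2 and 3, and 221, 216 and 187 CPM in cKO libraries 1, 2 and 3. All cKO libraries lay below all control libraries, of which the lowest was 255 CPM. The means were 304 ± 51.6 and 208 ± 18.6 CPM (n = 3 each, ± S.D.). This gave a log2 fold change of -0.55 with a standard error of 0.14 (adjusted p = 0.0375). This call was the least stable of the 3. It held without control 1, and without any other library the adjusted p was between 0.0810 and 0.161. On the other strand, exons of Tenm1 overlap 1465 nt (26.6%) of the annotated exonic sequence of Sh2d1a. Tenm1 had 155 to 405 counts per library against 4047 to 7691 for Sh2d1a, and the sources used here do not say if reads were counted by strand.

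Cd1d1 (ENSMUSG00000028076) encodes CD1d, which holds lipids in place of peptides, and lies on chromosome 3, minus strand, from 86995834 to 86999441. It had 125, 147 and 136 CPM in control libraries 1, 2 and 3, and 70.8, 76.4 and 61.2 CPM in cKO libraries 1, 2 and 3. The groups were far apart, with means of 136 ± 10.9 and 69.5 ± 7.70 CPM (mean ± S.D., n = 3 each). The log2 fold change was -0.97 (standard error 0.13, 95% interval -1.26 to -0.68, adjusted p = 0.00408). Cd1d1 kept an adjusted p below 0.05 when any 1 library was left out (6 of 6, highest 0.0406). Its neighbour and close copy Cd1d2 had 19.7 ± 6.53 CPM in control and 15.5 ± 2.92 CPM in cKO (log2 fold change -0.34, adjusted p = 0.440), and the sources used here do not say how reads shared by both genes were assigned.

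Zbtb16 (ENSMUSG00000066687, chromosome 9 from 48654297 to 48836222), which encodes the iNKT transcription factor PLZF, was the only member that failed the filter on low counts. It had 0, 2 and 0 reads in control libraries 1, 2 and 3, and 3, 0 and 0 reads in cKO libraries 1, 2 and 3. A library with 0 reads allows a level of up to 0.114 to 0.158 CPM (3 reads, counting error only, no TMM correction). No difference was therefore detectable at this depth, and no fold is given. Among other genes of NK and innate T cells, Klrb1c and Il4 had 0 reads in all libraries. The summed level of the 15 genes on that list was 46.9 to 89.5 CPM in control and 152 to 178 CPM in cKO. Most of this was Gzma, a granule protease, which was higher in cKO (log2 fold change 1.41, adjusted p = 0.00825). The next most abundant gene of the list was Il17rb (log2 fold change -0.07, adjusted p = 0.879).

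**Figure D2:**
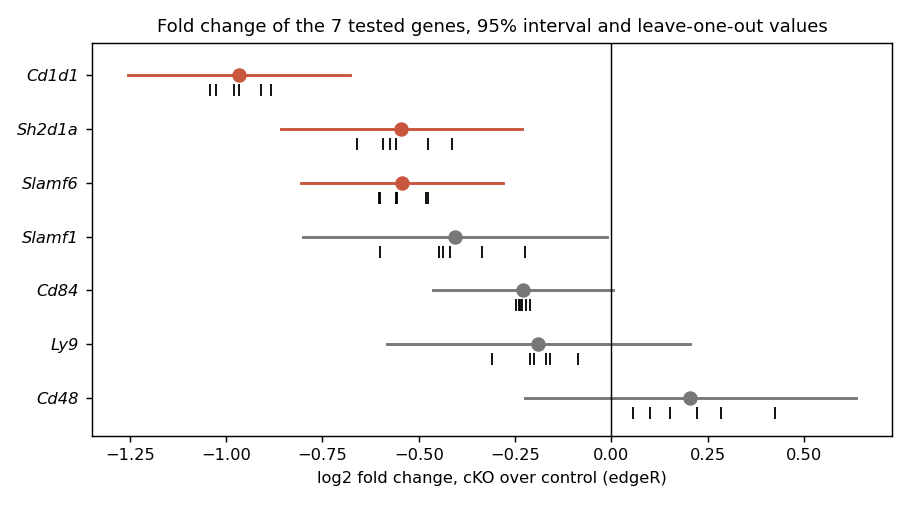
Log2 fold change (cKO over control, edgeR) of the 7 tested genes, with the 95% interval as a line and the 6 leave-one-out values as ticks below it. Red marks the 3 genes with an adjusted p below 0.05, and every leave-one-out tick of Cd1d1 lies between -1.04 and -0.88.

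The members were ordered by level per length, with the FPKM of the deposited table. Marker sums and the most abundant genes of marker lists rest on CPM, without gene length. In control libraries Sh2d1a led with 294 to 403 FPKM, followed by Slamf6 with 159 to 187 FPKM. Cd1d1 (65.0 to 74.5 FPKM) and Slamf1 (61.3 to 73.6 FPKM) overlapped, and Cd84 (52.4 to 53.9), Cd48 (29.6 to 47.6) and Ly9 (8.38 to 11.2 FPKM) followed without overlap. In cKO libraries Sh2d1a (213 to 256 FPKM), Slamf6 (107 to 127 FPKM) and, at the low end, Ly9 (8.46 to 9.09 FPKM) kept their places. Cd1d1 moved from place 3 to place 6, at 31.4 to 39.9 FPKM, and overlapped with Cd48 (38.5 to 49.9 FPKM) and Slamf1 (36.5 to 63.2 FPKM), which also overlapped with Cd84 (44.8 to 47.4 FPKM). The deposited FPKM imply a length of about 875 nt for Sh2d1a, while its annotated exons cover 5505 nt, and 1813 nt for Slamf6, whose exons cover 10832 nt, so these levels depend on the lengths the authors used. In FPKM, Slamf6 made up 49.0% to 52.6% of the sum over the 5 SLAM receptors in control libraries and 44.3% to 45.0% in cKO libraries. The share of Cd48 was 9.12% to 13.2% in control and 13.7% to 17.7% in cKO. These shares are a description and were not tested.

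The 5 SLAM receptors lie in 1 cluster on chromosome 1 with Cd244a and Slamf7, which had at most 6 and 23 reads in a library and were not tested. The cluster spans 394 kb, from 171559193 to 171953170. RefSeq promoters (GRCm38.p6) were matched for 4 of the 8 members, namely Cd48, Slamf1, Cd84 and Slamf6, and not for Ly9, Sh2d1a, Cd1d1 and Zbtb16. The 250 bases before the start of Slamf6 (chr1:171917212-171917461, plus strand) and of Cd48 (chr1:171681742-171681991, plus strand) are shown because these genes had the lowest and the highest log2 fold change of the 5 SLAM receptors, with capitals for the E-box (CANNTG on both strands), the motif bound by E proteins such as HEB and E2A.
Slamf6: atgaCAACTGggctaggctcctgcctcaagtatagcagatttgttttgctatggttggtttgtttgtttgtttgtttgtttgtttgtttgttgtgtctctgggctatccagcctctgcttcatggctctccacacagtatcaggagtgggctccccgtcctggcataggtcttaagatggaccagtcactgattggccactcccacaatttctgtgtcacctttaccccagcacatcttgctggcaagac
Cd48: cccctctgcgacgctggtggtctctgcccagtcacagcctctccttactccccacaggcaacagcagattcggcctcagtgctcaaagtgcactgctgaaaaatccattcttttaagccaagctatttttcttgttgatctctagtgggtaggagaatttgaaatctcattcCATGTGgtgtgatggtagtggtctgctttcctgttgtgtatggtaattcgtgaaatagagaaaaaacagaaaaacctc
Each of the 4 promoters held 1 E-box, which 66.2% of all RefSeq promoter windows of this length hold. It began 246 bases before the start in Slamf6 and 78 bases before it in Cd48, where it overlapped matches to both other motifs. The RUNX motif (TGNGGT, both strands, in 40.2% of windows) had 1 match each in Slamf6 and Cd48, 2 in Cd84 and 0 in Slamf1. The ETS core (GGAA, both strands, in 93.4% of windows) had 0 matches in Slamf6, 2 in Cd48 and 5 each in Slamf1 and Cd84. A match describes letters in the window and does not show binding.

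Within 250 kb of the cluster, 13 further genes were tested. Their median log2 fold change was -0.13, 10 of 13 were negative, and 1 passed the test. This was Dcaf8 (log2 fold change -0.91, adjusted p = 0.00408), at the edge of the window beyond Slamf6. Vangl2, the next tested gene after Slamf6, had a log2 fold change of -0.56 (adjusted p = 0.111), while Gm10521 between Cd84 and Slamf6 had 0.52 (adjusted p = 0.637).

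**Figure D3:**
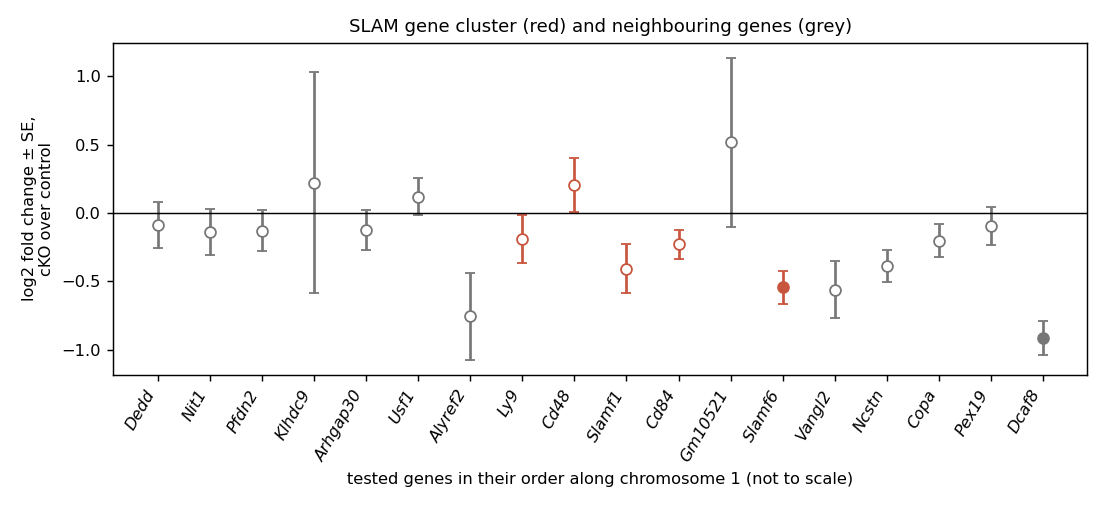
Log2 fold change ± standard error of the 5 tested SLAM genes (red) and 13 tested neighbours (grey) in their order along chromosome 1, with filled symbols for an adjusted p below 0.05. Only Slamf6 and Dcaf8 are filled.

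Genes that work with SLAM receptors were read from a list of 22 partners and signaling genes, of which 16 were tested, 5 were lower and 0 higher at an adjusted p below 0.05. The median of the list was -0.08 on the log2 scale, against -0.0017 for all tested genes. Dok2, an adaptor that restrains Ras signaling, had 251 ± 22.9 CPM in control and 162 ± 11.3 CPM in cKO (± S.D., n = 3 each). Its log2 fold change was -0.64 (adjusted p = 0.0104). Lck, the kinase that starts TCR signaling, had -0.42 (adjusted p = 0.0212), and Prkcq, the kinase that links TCR and SLAM signals to NF-kB, had -0.56 (adjusted p = 0.0245). Vav1, a signaling protein downstream of the TCR, had -0.41 (adjusted p = 0.0342). Fyn, the kinase that SAP recruits, was the fifth and is named after its value was seen. It had 29.4 ± 9.04 CPM in control and 16.1 ± 1.85 CPM in cKO (± S.D., n = 3 each). Its log2 fold change was -0.86 (adjusted p = 0.0482), and it was called in 3 of 7 other settings. The list count fell from 5 to 0 without cKO 3, to 3 without cKO 2 and to 1 without control 2, control 3 or cKO 1. Without control 1 it was 6 lower and 1 higher. Sh2d1b1, which encodes a relative of SAP used by NK cells, had at most 6 reads in a library, and Sh2d1b2 had 0 reads.

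The list of CD1d lipid antigen presentation covers the assembly of CD1d in the ER, its sorting to lysosomes and the proteins that load and trim lipids there. All 20 genes were tested, 6 were lower and 4 higher, with a median log2 fold change of -0.11. Ap3d1, a subunit of the adaptor complex that carries CD1d to lysosomes, was at -0.53 (adjusted p = 0.0173). The lysosomal protease gene Ctsl was at -0.57 (adjusted p = 0.0158). The largest change on the list went the other way, with Cd74, the MHC class II invariant chain, rising from 13.8 ± 4.15 CPM in control to 47.3 ± 18.6 CPM in cKO (± S.D., n = 3 each, log2 fold change 1.78, adjusted p = 0.00825). Cd74 is also abundant in antigen-presenting cells. The lower count of 6 became 0 without control 2, cKO 1 or cKO 3, 2 without cKO 2 and 3 without control 3. The higher count of 4 became 1 without control 3, cKO 1 or cKO 3 and 2 without control 2.

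Of 23 transcription factor genes known from iNKT precursors, 21 were tested, 2 were lower and 0 higher, with a median log2 fold change of -0.18. Id3, the inhibitor of E proteins, had 329 ± 12.1 CPM in control and 152 ± 16.8 CPM in cKO (± S.D., n = 3 each). Its log2 fold change was -1.11 (adjusted p = 0.00349). Bcl11b, a T lineage factor, had a log2 fold change of -0.84 (adjusted p = 0.00613). The count was 1 without cKO 3, 3 without control 2 and 4 without control 1 or with DESeq2. Tcf12, which encodes HEB and is named after its value was seen, did not pass (log2 fold change -0.28, adjusted p = 0.144).

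**Figure D4:**
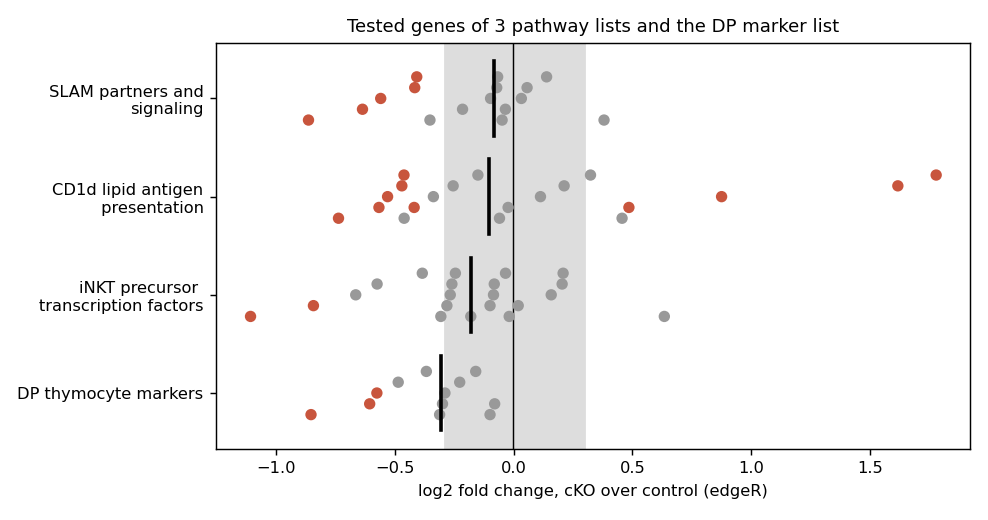
Log2 fold change (cKO over control, edgeR) of each tested gene of the 3 pathway lists and of the DP marker list, in red at an adjusted p below 0.05, with the list median as a black bar. The grey band holds the middle of all tested genes, between the quartiles -0.29 and 0.30, and all 12 DP markers lie below 0.

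Levels of other gene sets also differed between the groups. The 12 DP markers had a median log2 fold change of -0.31, and their sum differed by -0.40 on the log2 scale. Among them Rag1, which cuts TCR genes, had -0.85 (adjusted p = 0.00923), and Dntt, which adds bases at the cut ends, had -0.23 (adjusted p = 0.278). A ratio to the summed DP markers, chosen after the values were seen, was taken in each library. Per 1000 CPM of DP markers, Cd1d1 was at 10.4 to 11.3 CPM in control and 6.63 to 7.97 CPM in cKO, so the groups stayed apart, with a log2 ratio of the means of -0.56. Slamf6 was at 24.0 to 25.6 CPM in control and 21.1 to 24.6 CPM in cKO, and Sh2d1a at 21.2 to 25.7 and 20.2 to 24.9 CPM, so both overlapped on this scale. Cd84 started at 9.80 CPM in control and reached 12.8 CPM in cKO, and its groups overlapped here, while the log2 ratio of the means turned positive (0.18). Ly9 turned as well (1.71 to 2.34 and 2.07 to 2.42 CPM, log2 ratio 0.22), and Slamf1 overlapped (12.3 to 16.3 and 10.7 to 19.0 CPM, log2 ratio -0.0010). Cd48 was at 2.89 to 4.09 CPM in control and 5.10 to 5.47 CPM in cKO, without overlap.

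Markers of other cells were also read. DN and ISP stage genes summed to 163 to 187 CPM in control and 249 to 268 CPM in cKO. Of 8 tested genes, 5 had a positive and 3 a negative log2 fold change, and 3 passed the test as higher. Among these was Hes1 (log2 fold change 2.79, adjusted p = 0.00349), while Notch1 had 0.25 (adjusted p = 0.211). The 3 negative ones, named after their values were seen, were Lyl1 (-1.06, adjusted p = 0.536), Kit (-0.93, adjusted p = 0.335) and Notch3 (-0.76, adjusted p = 0.180). Erg and Il1r1 had 0 reads. Macrophage markers summed to 20.4 to 35.0 CPM in control and 57.2 to 80.1 CPM in cKO, with 4 of 9 tested genes higher and Mertk and Vsig4 at 0. The 4, named after their values were seen, were C1qb (mean 1.35 CPM in control and 8.80 CPM in cKO), C1qc (0.962 and 8.19 CPM), Cd68 (1.22 and 5.02 CPM) and Adgre1 (0 and 2.29 CPM). The most abundant markers over both groups together were Lyz2 (8.41 ± 6.61 CPM in control and 23.7 ± 4.39 CPM in cKO, adjusted p = 0.0778) and Hmox1 (log2 fold change -0.27, adjusted p = 0.637). Genes of mature SP thymocytes summed to 983 to 1149 CPM in control and 968 to 1582 CPM in cKO, with 1 of 9 higher (Cd69, log2 fold change 1.47, adjusted p = 0.0344, groups overlapping) and 0 lower. Dendritic cell markers summed to 94.7 to 118 CPM in control and 96.7 to 111 CPM in cKO, nearly all from Cst3 (107 ± 13.2 and 98.2 ± 6.15 CPM), with 0 of 3 called. The other 9 had means of at most 1.99 CPM. Of those not tested, Ccl22 (0.137 and 1.07 CPM), Xcr1 (0.250 and 1.03 CPM, groups overlapping), Batf3 and Siglech had higher means in cKO. Itgax (0.276 and 0.224 CPM) and Cd209a (0.0685 and 0 CPM) had lower ones, and Clec9a had 0 reads. These genes are named after their values were seen. B cell markers summed to 948 to 1300 and 872 to 911 CPM, with 1 of 3 lower (Cd79b, log2 fold change -0.70, adjusted p = 0.0194) and most of the sum from Ighm (-0.38, adjusted p = 0.0887). The part of these sets in the values of the members was not tested.

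The genes whose log2 CPM followed each member most closely over the 6 libraries were also listed, among 9204 genes with a mean of at least 5 CPM. The 6 points fall into the 2 genotype groups, so these values are a description. Coro1b and Smap2 were closest to Cd1d1 (Pearson r of 0.999 and 0.998), Capn3 and Cd52 to Slamf6 (0.999 and 0.998), and Dpm2 and Trpv2 to Sh2d1a (0.998 and 0.997). Fam160b2 and Slc49a4 were closest to Slamf1 (0.995 and 0.990), Dele1 and Chst12 to Cd84 (0.999 and 0.999), Cenpa and Ccnb2 to Ly9 (0.995 and 0.994), and Suds3 and Zfp119b to Cd48 (0.990 and 0.975). No member was among the nearest 2 genes of another.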

How the data were processed

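RNA-Seq of sorted DP thymocytes was analysed in 6 libraries, 3 per genotype, grouped by the sample titles. The authors deposited 1 table of 22322 genes with a count of reads per gene and library, not normalized, and FPKM, which the authors computed per length and depth. The group means, log2 ratio, p-value and FDR columns, also deposited, hold the authors' own comparison and were not used. The submitters' processing notes name fastp 0.18.0, Bowtie2 2.2.8, HISAT2, StringTie and RSEM, without roles. The sources used here name no genome build, annotation or strand setting and do not say whether the counts are rounded RSEM estimates. Positions came from GENCODE M21 (GRCm38) by Ensembl identifier, matched for 22267 genes.

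Counts were tested in R 4.3.3 with edgeR 4.0.16 (TMM, filterByExpr with a minimum count of 10 and total of 15, quasi-likelihood test with genotype as the only term, Benjamini-Hochberg adjustment over 11488 genes). CPM are TMM-scaled unless stated otherwise, and intervals are 95%. Within each group, counts of replicates differed well beyond sampling (chi-square over its degrees of freedom 19.7 to 68.0), so none was a repeat sequencing of another. This does not show that the libraries came from different mice, and pairs across the groups were not compared. The scripts were tested on simulated counts. The members and gene lists were chosen with earlier results of these data known. Text names all members, at most 4 called genes per pathway list by adjusted p, the 2 most abundant genes per marker list, the 2 genes closest to each member over the libraries and the called neighbours of the SLAM cluster. Other genes were named after their values were seen. A gene that this rule selects is not reported here. Alternatives were DESeq2 1.42.0, limma-voom (limma 3.58.1), RLE factors, library totals, no filter, a mean of at least 5 CPM, the replicate number as a term and each library left out in turn.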

Additional observations from a re-analysis of the deposited data

How the results depend on the processing

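Under the 7 alternatives with all libraries (DESeq2, limma-voom, RLE factors, library totals, no filter, a mean of at least 5 CPM, and the replicate block), Cd1d1, Slamf6 and Sh2d1a were called each time, and Slamf1, Cd84, Ly9 and Cd48 were not. All kept their sign. Leaving out 1 library in turn gave 1 to 3 called members, 2 to 21 called genes on the pathway lists (17 with all libraries) and 120 to 2030 called genes in all (1191 with all libraries). The log2 fold change was then -0.60 to -0.48 for Slamf6, called in 2 of 6 fits, and -0.66 to -0.41 for Sh2d1a, called in 1 of 6. In these fits 1 group has 2 libraries. DESeq2 called 1899 genes in all. The cause of these differences was not tested. The replicate numbers of the labels were not taken as pairs, since deviations from the group means correlated by 0.045, 0.038 and -0.030 for libraries of the same number, and not every library correlated best with its own number. The replicate block called 1238 genes and the same number of members, 3. Depth limits Zbtb16, Cd244a, Slamf7 and Sh2d1b1, which had few or no reads.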
